A study of Mus musculus with 4 samples.

Results

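Activins, their binding proteins and their receptors were described in mouse liver 48 h after partial hepatectomy and 48 h after a sham operation. Partial hepatectomy takes away some lobes, after which the remaining liver grows back in mass. The set held 10 genes of 18193 named on the array: the subunit genes Inhba, Inhbb, Inhbc and Inhbe, the antagonist genes Fst and Fstl3, and the receptor genes Acvr1, Acvr1b, Acvr2a and Acvr2b. They were represented by 19 of 34945 probe sets with 1 gene symbol, a probe set being several array probes for one transcript. The members were chosen by gene name, with the signals of these same 4 arrays already known. Their levels and differences are therefore given as a description, and no p-value is attached to any of them. Where a member is said to be called, the word only reports that a threshold was passed. It is not independent evidence of a difference, since the signals were known beforehand.

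All animals were C57BL/6J mice with no genetic change named in the labels, and the tissue was mature liver. Total RNA of sham-operated liver was measured on 2 arrays (replicates 1 and 2), and that of hepatectomised liver on 2 arrays (replicates 1 and 2). Whether each RNA came from a single mouse or a pool, and the age and sex of the mice, are not stated in the labels. The SDs below therefore measure the spread between these arrays, which may in part be technical. Each SE also borrows from the spread of other probe sets. It can therefore be smaller than the spread of a probe set's own arrays would give, or larger. Values are fluorescence signals in arbitrary units that the authors had scaled to a common mean on each array.

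Activins are secreted dimers of inhibin beta subunits. They bind the type II receptors encoded by Acvr2a and Acvr2b, which then recruit a type I receptor, chiefly the one encoded by Acvr1b, and this phosphorylates the transcription factors Smad2 and Smad3. Follistatin, from Fst, and the related protein from Fstl3 bind activins and keep them from the receptors. In liver, activin A is known to restrain hepatocyte division, and Inhbc and Inhbe are expressed mainly by hepatocytes.

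The 4 arrays had the same trimmed mean signal. The median signal was 57.5 on hepatectomy replicate 1 and lay between 46.4 and 48.7 on the other arrays. Hepatocyte markers were strong on all arrays, with a summed signal over 6 genes between 82185 and 96752. Hepatectomy replicate 1 stood apart: its summed signal of 5 adrenal marker genes was 11875, against 178 to 193 on the other 3 arrays, and that of 3 fat marker genes was 2265, against 64.7 to 254. All 5 adrenal and all 3 fat genes were highest on this array. Of the 5 adrenal genes, only Cyp21a1 and Star lay above the level of the bacterial controls on the other arrays. Summed markers of neutrophils were 435 and 351 in sham against 9831 and 3527 after hepatectomy, with S100a8 and S100a9 higher on both hepatectomy arrays and Ngp, Camp and Ltf under the bacterial control level on all arrays. The sums of Kupffer cells (10116 and 10435 against 12237 and 12686), cholangiocytes (457 and 526 against 1249 and 737) and mesothelium (145 and 139 against 226 and 257) were also higher on both hepatectomy arrays, and that of endothelial cells (5588 and 5691 against 4645 and 4998) was lower. Among the 5 Kupffer markers, Marco went from 241 and 172 to 3194 and 1670 (limma adjusted p = 0.00145), whereas Clec4f and Adgre1 were lower on both hepatectomy arrays without passing. Among the endothelial markers, none of them called, Stab2, Clec4g, Kdr and Lyve1 were lower on both hepatectomy arrays. Pecam1 was higher on both (152 and 131 against 201 and 163), and the groups overlapped for Cdh5. What these other cells and tissues contributed to the differences below was not tested. Differences are also given with single arrays left out; a group then holds 1 array, which is assumed to vary like the arrays of the other group.

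**Figure D1:**
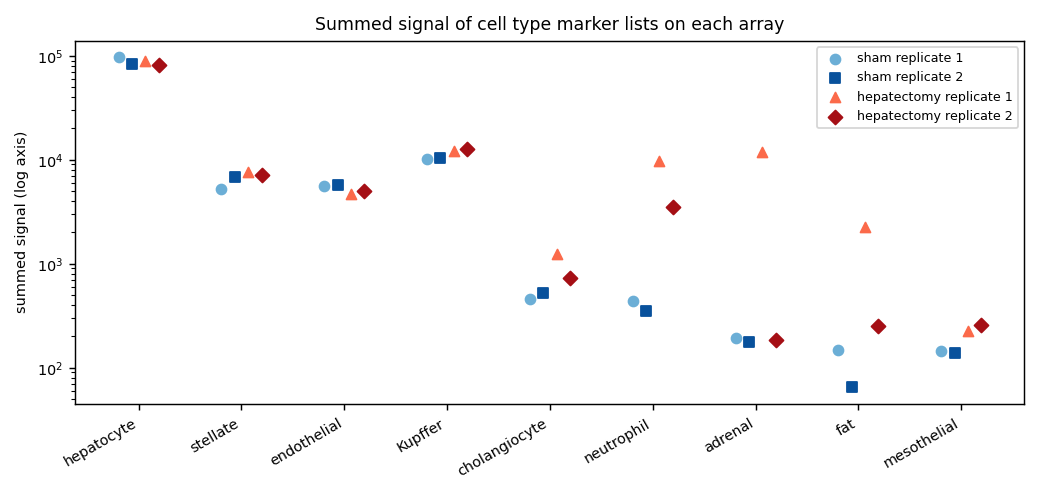
Summed signal (log axis) of marker genes of 9 cell types or tissues on each of the 4 arrays, 1 point per array. The adrenal sum is 11875 on hepatectomy replicate 1 and between 178 and 193 elsewhere, while the hepatocyte sums lie between 82185 and 96752.

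The upstream sequences of the 4 subunit genes are shown because Inhbb and Inhbe, the members called below, are among them, and because Inhbc, whose groups overlapped, is the direct neighbour of Inhbe on chromosome 10. Each run is the 250 bases before the RefSeq start on build GRCm38.p6, read 5′ to 3′ on the strand of the gene. The windows are chr1:119422249-119422498 (minus strand) for Inhbb, chr10:127351849-127352098 (minus strand) for Inhbe, chr10:127370549-127370798 (minus strand) for Inhbc and chr13:16011601-16011850 (plus strand) for Inhba. Capitals mark matches, on either strand, to 6 motifs: TATAAA (the TATA box), TGACGTCA (the cyclic AMP response element), GTCTAGAC (the palindromic Smad element), CAGACA (a shorter Smad element), CCAAT (the CCAAT box) and GGGCGG (the GC box). No matches overlapped in these windows.
Inhbb: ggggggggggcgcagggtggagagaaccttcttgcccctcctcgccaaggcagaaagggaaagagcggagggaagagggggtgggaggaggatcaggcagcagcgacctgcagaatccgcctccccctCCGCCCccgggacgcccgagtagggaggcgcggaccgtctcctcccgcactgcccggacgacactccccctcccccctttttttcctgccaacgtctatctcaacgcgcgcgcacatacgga
Inhbe: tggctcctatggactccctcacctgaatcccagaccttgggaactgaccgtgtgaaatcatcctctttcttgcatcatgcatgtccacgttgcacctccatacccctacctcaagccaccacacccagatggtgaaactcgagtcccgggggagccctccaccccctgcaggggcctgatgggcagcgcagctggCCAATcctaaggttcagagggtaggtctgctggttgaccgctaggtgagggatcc
Inhbc: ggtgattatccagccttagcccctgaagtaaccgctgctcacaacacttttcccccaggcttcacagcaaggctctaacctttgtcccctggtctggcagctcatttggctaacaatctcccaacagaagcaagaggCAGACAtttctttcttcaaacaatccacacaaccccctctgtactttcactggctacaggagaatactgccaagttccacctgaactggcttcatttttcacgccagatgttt
Inhba: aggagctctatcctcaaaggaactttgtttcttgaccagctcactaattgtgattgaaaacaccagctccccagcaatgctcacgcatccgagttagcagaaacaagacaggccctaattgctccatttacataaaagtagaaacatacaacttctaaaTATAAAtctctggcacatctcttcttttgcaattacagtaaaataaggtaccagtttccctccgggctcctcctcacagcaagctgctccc

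Each of the 4 windows held 1 match, and no motif was shared. Inhbb held 1 GGGCGG match on the opposite strand at position -122 before the start, Inhbe 1 CCAAT at -55, Inhbc 1 CAGACA at -113 and Inhba 1 TATAAA at -91. Among all 32851 RefSeq windows of this length, 32.7% held GGGCGG, 33.8% CCAAT, 17.1% CAGACA and 12.4% TATAAA. None of the 4 held TGACGTCA (1.55% of all windows) or GTCTAGAC (0.167%). CCAAT and GGGCGG were added to the search after the windows had been seen. The share of G and C was 68.0% for Inhbb, 58.8% for Inhbe, 48.8% for Inhbc and 43.2% for Inhba, against a median of 52.4% over all windows. The 4 receptor genes had windows of 72.8% to 85.6% G and C, each with 2 to 6 GGGCGG matches.

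Over the family, the 4 subunit genes had log2 differences between hepatectomy and sham of 0.62 to 2.42, the antagonists of -0.18 to 1.28 and the receptors of -0.38 to 0.10. Of the 19 probe sets, 13 passed a filter that left out dim probe sets, and each of the 10 genes kept at least 1. Groups were compared by limma on log2 signals, and a probe set was called where its Benjamini-Hochberg adjusted p over all 27022 probe sets tested was under 0.05. This called 2 of the 13, one of Inhbb and the one of Inhbe, both higher, while 3.39% of all probe sets tested were called and 2.51% were called higher. No member probe set was called lower. By limma, 4 of the 13 had an unadjusted p under 0.05, beside 4495 of all 27022 probe sets tested. The members were chosen with this contrast known, so nothing is read from the count. The median log2 difference of the 13 probe sets was 0.10, beside 0.001 over all probe sets tested. In 4 of the 13 both hepatectomy arrays lay above both sham arrays and in 2 both lay below, against 24.4% and 23.3% of all probe sets tested.

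**Figure D2:**
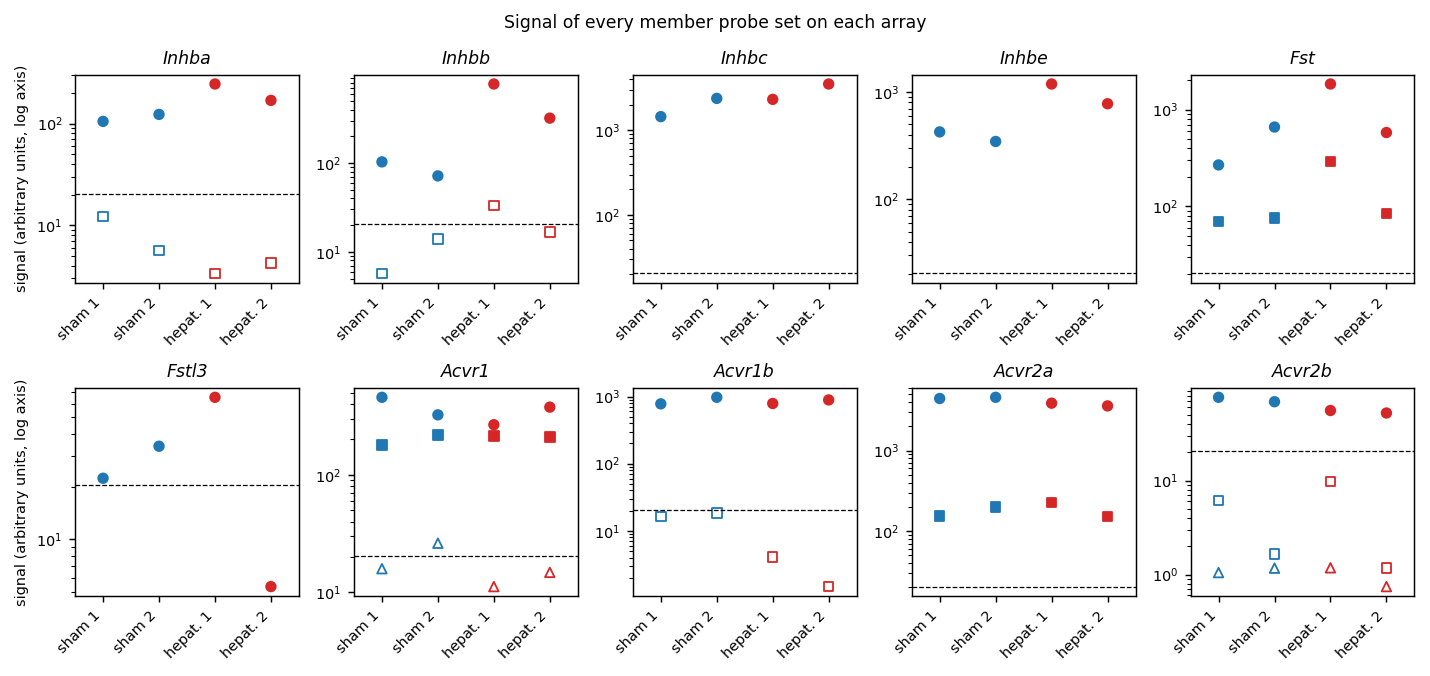
Signal of all 19 probe sets of the 10 genes on the 4 arrays (log axis, each panel with its own range), sham in blue and hepatectomy in red. Different marker shapes are different probe sets of a gene, open markers were left out by the filter on dim probe sets, and the dashed line is the highest bacterial control signal (20.4). For Inhbb and Inhbe the filled red points lie above the filled blue ones, for Fst only hepatectomy replicate 1 does so in the brighter probe set.

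Inhbb encodes the beta B subunit, of which activin B is a dimer. Its probe set 1426858_at had signals of 103 and 71.6 in the sham arrays and of 775 and 320 in hepatectomy replicates 1 and 2. Both hepatectomy arrays lay above both sham arrays, and the replicates of the hepatectomy group differed by 1.25 on the log2 scale. The mean signal went from 87.3 ± 22.2 to 547 ± 322 (SD, n = 2 arrays per group), a ratio of 6.27, and the log2 difference was 2.42 ± 0.41 (SE). This difference exceeded the spread within either group. Without hepatectomy replicate 1, the array with adrenal and fat transcripts, it was 1.80. Its spread then came from the sham arrays and, as in every fit, from that borrowed from other probe sets. On the remaining hepatectomy array the adrenal sum was 185, within the sham range, and the fat sum was 254, above the sham values of 147 and 64.7. With all 4 arrays it was called, and the call was lost without sham replicate 1 (log2 difference 2.66) and without sham replicate 2 (2.18).

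The other Inhbb probe set, 1426859_at, was dim and did not enter the comparison. It had signals of 5.74 and 13.9 in the sham arrays and of 33.2 and 16.8 in the hepatectomy arrays, and only hepatectomy replicate 1 exceeded 20.4. That level is the highest signal of 27 probe sets for Bacillus subtilis genes, which have no target in mouse RNA. Its groups did not overlap, but most of its values lay at the background.

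Inhbe encodes the beta E subunit, a product of hepatocytes. Its only probe set had signals of 425 and 346 in the sham arrays and of 1189 and 778 in the hepatectomy arrays. All hepatectomy values lay above all sham values, by at least 0.86 on the log2 scale, whereas arrays of one group differed by 0.29 and 0.61. The mean went from 385 ± 55.7 to 984 ± 291 (SD, n = 2 arrays per group), a ratio of 2.55, with a log2 difference of 1.31 ± 0.25 (SE). Leaving out sham replicate 1 gave 1.45, leaving out sham replicate 2 gave 1.16, and leaving out hepatectomy replicate 1 gave 1.01, in each case without a call. Leaving out hepatectomy replicate 2 gave 1.61, and only this fit kept the call. There the array with adrenal and fat transcripts stood alone for its group.

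Inhbc, the neighbour of Inhbe, encodes the beta C subunit and is also known as a hepatocyte transcript. It had signals of 1449 and 2381 in the sham arrays and of 2320 and 3523 in the hepatectomy arrays. The groups overlapped, since sham replicate 2 lay just above hepatectomy replicate 1. The log2 difference of 0.62 ± 0.27 (SE) was smaller than the 0.71 between the sham arrays. Leaving out sham replicate 1 or hepatectomy replicate 2 took it to 0.26 and 0.32, and leaving out sham replicate 2 or hepatectomy replicate 1 took it to 0.98 and 0.92. Unlike the other subunit genes, its higher hepatectomy value was in replicate 2.

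Inhba encodes the beta A subunit, of which activin A is a dimer. Its probe set 1422053_at had signals of 105 and 123 in the sham arrays and of 245 and 169 in the hepatectomy arrays. The groups did not overlap, and the lowest of the 4 differences between a hepatectomy and a sham array was 0.44. The log2 difference was 0.79 ± 0.30 (SE), beside 0.51 between the hepatectomy arrays, and 0.54 without hepatectomy replicate 1. It was not called with all 4 arrays or with any 1 of them left out. A dimmer Inhba probe set, 1458291_at, stayed under the control level on all 4 arrays (3.36 to 12.2) and gives no direction.

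**Figure D3:**
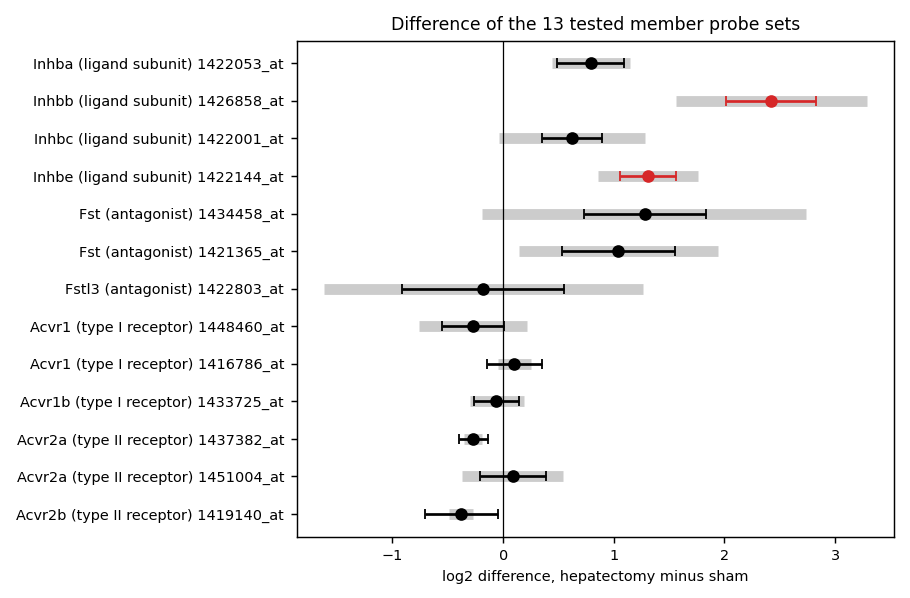
Log2 difference between hepatectomy and sham for the 13 probe sets that passed the filter; points and whiskers are the difference ± SE, grey bars span the 4 differences between single arrays, and red marks the called ones. Inhbb (2.42) and Inhbe (1.31) are red, the grey bars of Inhbc, Fst 1434458_at and Fstl3 reach across 0, and the 6 receptor values lie between -0.38 and 0.10.

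Fst encodes follistatin, which binds activins almost irreversibly. Its brighter probe set, 1434458_at, had signals of 268 and 660 in the sham arrays and of 1836 and 579 in the hepatectomy arrays. Only hepatectomy replicate 1 was high, and replicate 2 lay below sham replicate 2. The log2 difference of 1.28 ± 0.55 (SE) was therefore smaller than the gap of 1.65 between the hepatectomy arrays. It was 0.45 without hepatectomy replicate 1 and 0.64 without sham replicate 1. Without hepatectomy replicate 2 it was 2.10 and called, and without sham replicate 2 it was 1.92 and not called.

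The dimmer Fst probe set, 1421365_at, gave signals of 69.6 and 75.9 in the sham arrays and of 292 and 84.3 in the hepatectomy arrays. Here too a single array was high, and hepatectomy replicate 2 exceeded the higher sham array by only 0.14 on the log2 scale. The log2 difference was 1.04 ± 0.51 (SE). Both probe sets thus had their highest signal on the array with adrenal and fat markers, and what that RNA contributed was not tested.

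Fstl3 encodes follistatin-like 3, a secreted antagonist that also binds activins. Its only probe set had signals of 22.4 and 34.2 in the sham arrays and of 65.3 and 5.35 in the hepatectomy arrays. The hepatectomy arrays lay on either side of the sham arrays, 1 of them under the bacterial control level. The log2 difference of -0.18 ± 0.73 (SE) had no stable sign: it was -1.39 without hepatectomy replicate 1, 1.02 without hepatectomy replicate 2, 0.05 without sham replicate 2 and 0.01 with an offset of 32 before the logarithm.

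**Figure D4:**
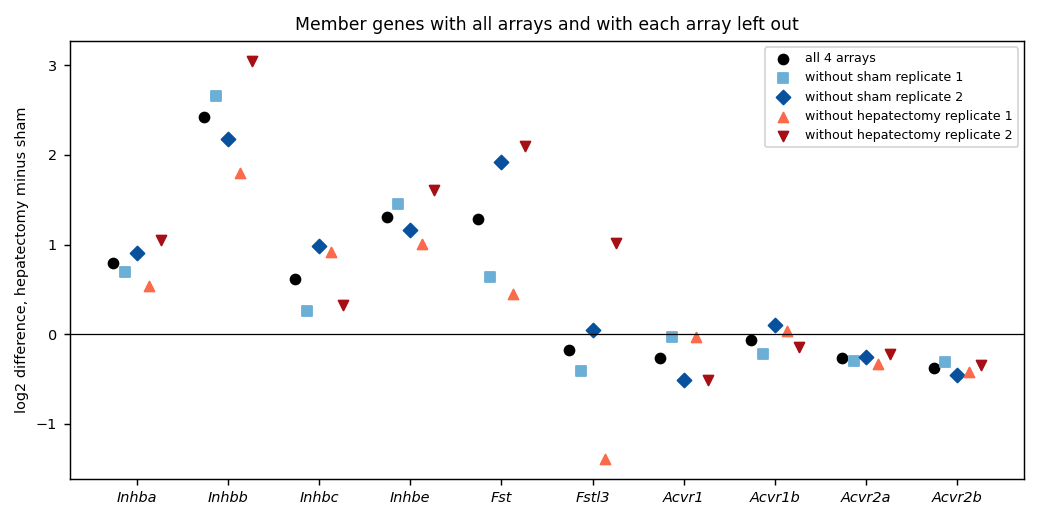
Log2 difference of each member gene, by its brightest probe set, with all 4 arrays and with each array left out in turn. Inhbb lies between 1.80 and 3.05 and Inhbe between 1.01 and 1.61, Fst ranges from 0.45 to 2.10, Fstl3 from -1.39 to 1.02, and the receptor genes stay between -0.51 and 0.10.

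Acvr2a encodes a type II receptor, which binds the ligand first. Its brighter probe set, 1437382_at, had signals of 4454 and 4609 in the sham arrays and of 3893 and 3602 in the hepatectomy arrays. The groups did not overlap, and the arrays within a group differed by at most 0.11 on the log2 scale. The log2 difference was -0.27 ± 0.13 (SE) and was not called, also not with any 1 array left out (-0.33 to -0.22). The dimmer probe set, 1451004_at, had signals of 154 and 198 against 228 and 152, overlapping groups and a log2 difference of 0.09 ± 0.30 (SE). A further probe set annotated to both Orc4 and Acvr2a was not used.

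Acvr2b encodes the other type II receptor of activins. Its probe set 1419140_at had signals of 76.7 and 68.8 in the sham arrays and of 55.5 and 52.2 in the hepatectomy arrays. Both hepatectomy values were below both sham values, with a log2 difference of -0.38 ± 0.33 (SE) that was not called. It lay between -0.45 and -0.31 with 1 array left out. The SE, which borrows from probe sets of like signal, was larger than the 0.14 between the sham arrays and the 0.08 between the hepatectomy arrays. Its other 2 probe sets were under the control level on every array.

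Acvr1b encodes ALK4, the main type I receptor of activin signalling. Its brighter probe set had signals of 778 and 974 in the sham arrays and of 788 and 890 in the hepatectomy arrays. The hepatectomy values lay between the sham values, with a log2 difference of -0.06 ± 0.20 (SE). The other probe set, 1422098_at, was under the control level on all 4 arrays.

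Acvr1 encodes ALK2, a type I receptor that was named for activin binding and signals mainly for bone morphogenetic proteins. Its brightest probe set, 1448460_at, had signals of 457 and 324 in the sham arrays and of 267 and 377 in the hepatectomy arrays. The groups overlapped, and the log2 difference of -0.27 ± 0.28 (SE) was smaller than the 0.49 between arrays of either group. It was -0.51 without sham replicate 2 or without hepatectomy replicate 2, and -0.03 without either of the other arrays. Probe set 1416786_at gave signals of 179 and 218 against 213 and 210, with a log2 difference of 0.10 ± 0.25 (SE). The remaining probe set exceeded the control level on 1 array.

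In the 6 receptor probe sets tested, then, log2 differences ran from -0.38 to 0.10, with 4 below 0. None was called. In bulk tissue such as this, fewer cells of a type and less RNA per cell cannot be told apart, for these receptors as for the subunits above.

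The wider pathway was described with 5 lists of 67 genes, of which 63 had a probe set of their own and 53 passed the filter. The lists were written with earlier results of these arrays known, so nothing is read from the counts. For listed genes, too, an adjusted p only reports whether the threshold was passed, and is not independent evidence. Among the 53, 5 genes were called higher and none lower, against 3.57% and 1.09% of all 12560 genes tested. By limma, 19 of the 53 had an unadjusted p under 0.05, beside 2502 of all 12560 genes. The median log2 difference was 0.20, beside 0.025 over all genes. All 5 calls were in the list of genes known to respond to Smad2 and Smad3, where 10 of 15 had an unadjusted p under 0.05. Smad7, Skil, Pmepa1, Ldlrad4 and Tgif1 stood both in this list and in that of the Smads and their regulators. The counts per list therefore share genes. No gene was called among the other ligands, the other receptors, the co-receptors and extracellular modulators, or the Smads and their regulators, where 2 of 4, 2 of 7, 3 of 12 and 6 of 20 had an unadjusted p under 0.05.

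Among the other ligands, Tgfb1, which encodes the best-known member of the superfamily, had signals of 83.7 and 123 in the sham arrays and of 152 and 218 in the hepatectomy arrays. Its groups did not overlap, and its log2 difference of 0.79 ± 0.32 (SE) did not pass (limma adjusted p = 0.272). Inha, whose product pairs with beta subunits to form inhibin, exceeded the control level on sham replicate 1 alone and was not tested. The 4 ligands tested had a median log2 difference of 0.54, from 0.11 to 1.27.

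Acvr1c encodes ALK7, a further type I receptor for activin B. Its tested probe set had sham signals of 11.2 and 13.9 both under the bacterial control level, and hepatectomy signals of 69.8 and 29.8. Against that level this probe set was at least 2.24-fold higher, or 1.46-fold without hepatectomy replicate 1, and its log2 difference of 1.38 ± 0.48 (SE) did not pass (limma adjusted p = 0.193). Its mean passed the filter only through the hepatectomy arrays. A second probe set, too dim to be tested, had signals of 24.0 and 16.4 against 26.8 and 16.2 and did not separate the groups, and the remaining one exceeded the control level on hepatectomy replicate 1 alone.

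No receptor gene of TGF-beta itself passed the test. Tgfbr1, the type I receptor gene, had a log2 difference of -0.20 ± 0.16 (SE; limma adjusted p = 0.605), and Tgfbr2, the type II receptor gene, of 0.20 ± 0.16 (adjusted p = 0.588) in its brighter probe set. A dimmer Tgfbr2 probe set went the other way without overlap, from 42.4 and 40.5 to 22.3 and 27.4 (-0.59 ± 0.38; adjusted p = 0.509). The co-receptor gene Tgfbr3, whose product betaglycan helps inhibin to bind type II receptors, had one of -0.30 ± 0.22 (adjusted p = 0.567). Tdgf1, which encodes the co-receptor Cripto, was under the control level on all arrays.

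Smad2 and Smad3, which carry the activin signal, had overlapping groups in their brightest tested probe sets. Smad2 had signals of 538 and 395 in the sham arrays and of 471 and 400 in the hepatectomy arrays, with a log2 difference of -0.08 ± 0.24 (SE; limma adjusted p = 0.907). Smad3 had 1109 and 1692 against 1652 and 1164, with a log2 difference of 0.02 ± 0.25 (adjusted p = 0.984). A dimmer tested Smad3 probe set also overlapped (0.09 ± 0.36; adjusted p = 0.935). Another, too dim to be tested, did not overlap, with 32.3 and 31.6 against 17.6 and 7.92. Both of its hepatectomy values lay under the bacterial control level. Smad4, the shared partner of Smad2 and Smad3, had a log2 difference of -0.27 ± 0.14 (adjusted p = 0.403). Smad7, an inhibitory Smad that the pathway itself induces, had signals of 763 and 772 against 1114 and 998 and a log2 difference of 0.45 ± 0.18 (adjusted p = 0.251). Transcript levels say nothing of the phosphorylation of these proteins, which was not measured.

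In the list of genes known to respond to Smad2 and Smad3, 5 of 15 passed the test, all higher. Over all 12560 genes tested, 3.57% were called higher. The median log2 difference of the list was 0.64, beside 0.025 over all genes. Another 2 were lower on both hepatectomy arrays without passing, and are named after their values were seen: Ccn2, a matricellular protein gene, with 907 and 849 against 673 and 346 (-0.85 ± 0.30 SE; limma adjusted p = 0.203), and Ldlrad4, with 155 and 87.1 against 85.4 and 63.5 (-0.60 ± 0.37; adjusted p = 0.471). Cdkn1a, the gene of the Cdk inhibitor p21, had signals of 83.7 and 92.9 in the sham arrays and of 998 and 646 in the hepatectomy arrays (log2 difference 3.07 ± 0.28 SE; limma adjusted p = 0.00138). The fibrillar collagen gene Col1a1 went from 175 and 361 to 2079 and 1248 (2.64 ± 0.36; adjusted p = 0.00826), Col3a1 from 833 and 1390 to 4057 and 2727 (1.62 ± 0.27; adjusted p = 0.0193) and Col1a2 from 361 and 431 to 1067 and 808 (1.22 ± 0.22; adjusted p = 0.0265). Timp1, whose product blocks matrix metalloproteinases, had signals of 2.23 and 14.3 in sham, both below the bacterial controls, and of 653 and 252 after hepatectomy, at least 19.9-fold higher (adjusted p = 0.00325), or at least 12.4-fold with hepatectomy replicate 1 left out and 32.1-fold with hepatectomy replicate 2 left out. Its mean passed the filter only through the hepatectomy arrays, and with no filter its adjusted p was 0.0355. These genes also answer to other signals, and Col1a1 is in addition a stellate cell marker.

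Of 7 stellate cell markers, 2 were called higher, Col1a1 and Acta2, and the summed signal was 5289 and 6866 in sham against 7690 and 7123 after hepatectomy. This sum includes Col1a1 itself, with 175 and 361 in sham against 2079 and 1248 after hepatectomy. It is therefore not separate from the collagen values. Lrat and Reln, also stellate markers, were lower in both hepatectomy arrays than in both sham arrays without being called. The part of cell number in the collagen values was not tested. Without sham replicate 1, Col1a2 (adjusted p = 0.213) and Col3a1 (adjusted p = 0.0873) lost their calls, and without sham replicate 2 Col1a2 did (adjusted p = 0.0971). With no filter on dim probe sets Col1a1 (adjusted p = 0.0542), Col1a2 (0.0779) and Col3a1 (0.0943) lost theirs, as did these 3 (0.104 to 0.152) and Timp1 (0.0516) with no variance trend. Averaging its probe sets took Col3a1 to an adjusted p of 0.0512. Cdkn1a was called under every alternative tried.

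**Figure D5:**
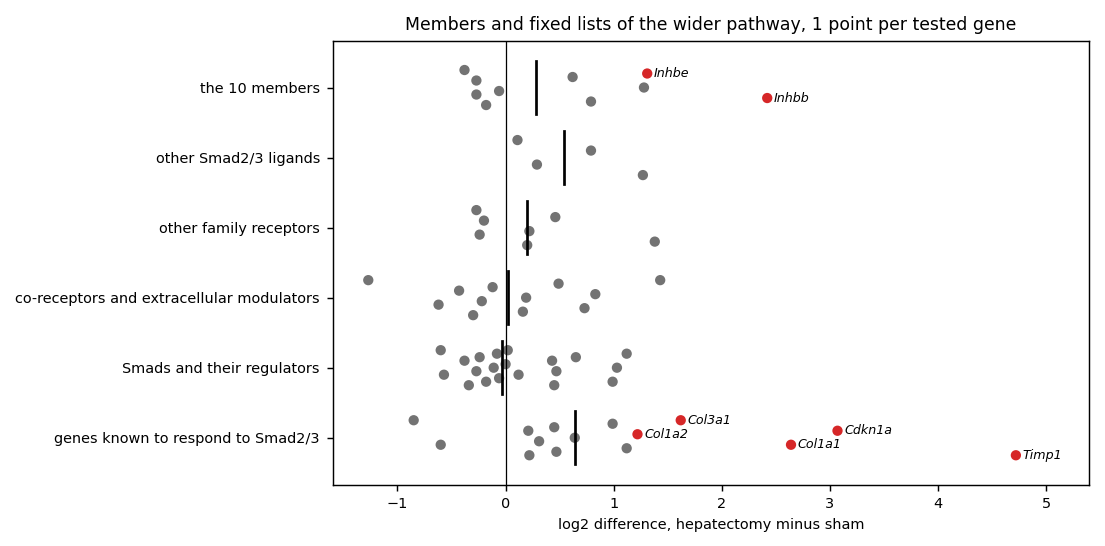
Log2 difference between hepatectomy and sham for the member genes and for 5 lists of the wider pathway, 1 point per gene that passed the filter, with the list median as a black bar and called genes in red. Genes shared between lists are shown in each. The called genes of the lists, Timp1, Cdkn1a, Col1a1, Col3a1 and Col1a2, all belong to the genes known to respond to Smad2 and Smad3, and the Smads and their regulators have a median of -0.03.

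The pattern of Inhbb over the 4 arrays was compared with that of every other gene tested by the Euclidean distance between gene-centred log2 signals. The nearest 5 genes were Ackr3 (distance 0.264), which encodes a scavenging chemokine receptor, Mtnr1a (0.351), a melatonin receptor gene, Stil (0.365), which acts in centriole duplication, Pdk4 (0.435), a kinase gene of pyruvate dehydrogenase, and Lrrc75a (0.456). Each had its highest signal on hepatectomy replicate 1, as Inhbb did, which goes with their being chosen for a similar pattern. For Acvr2b, the member with the lowest log2 difference, the nearest were Ak3 (0.037), Kdm7a (0.038), Smg6 (0.039), Zhx2 (0.041) and Dazap2 (0.042), none of them called. With 4 arrays, such distances describe these arrays only.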

How the data were processed

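Affymetrix expression arrays measured liver RNA, with 2 arrays for sham and 2 for hepatectomy. The authors deposited 1 linear intensity per probe set and array, and the submitters' processing notes name GCOS 1.4; its settings were not given in the sources used here. Without scan dates no batch was tested. The mean after trimming 2% at each end was the same on every array, so the values had been scaled before deposit.

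Of 45101 probe sets, 64 controls were left out. Symbols came from the platform annotation: 34945 probe sets had 1 symbol, 932 several and 9160 none. Intensities were turned to log2 after adding 8.57, the 20th percentile of all values, and 27022 probe sets with a mean at or above the 40th percentile (5.09) were tested. R 4.3.3 and limma 3.58.1 (lmFit, then eBayes with its trend option) gave two-sided tests on 2 residual and 6.02 prior degrees of freedom, adjusted by Benjamini-Hochberg over all 27022. The code was tested on simulated data. Means and SDs are of signals; differences are log2(signal + 8.57), which understates those of dim genes. A gene of the lists was represented by its brightest tested probe set. With both sham signals below 20.4, the highest Bacillus subtilis control signal (a level set after the values were seen), a fold is a lower bound against that level.

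The members, lists and tests were chosen with earlier results of these data known. Named were every member, every called gene of a list (at most 6) and Acvr1c, Tgfb1, Tgfbr1, Tgfbr2, Smad2, Smad3, Smad4, Smad7, Inha, Tdgf1 and Tgfbr3 in any case, and the 5 genes nearest to the member with the largest increase and to that with the largest decrease. Genes named from the marker lists, and Ccn2 and Ldlrad4, lie outside this rule. Promoter windows came from RefSeq (GRCm38.p6), which matched 9 of the 10 members; Fst was not matched. Alternatives were other offsets, no filter, median centring, quantile normalization, no trend, robust eBayes, the replicate number as a block, averaging the probe sets of a gene and each array left out.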

Additional observations from a re-analysis of the deposited data

How the results depend on the processing

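The signs of the log2 differences of Inhba, Inhbb, Inhbc, Inhbe, Fst, Acvr1, Acvr2a and Acvr2b were the same under all 13 alternatives. That of Fstl3 was the same in 10 and that of Acvr1b in 11. These counts include settings that cannot move a log2 difference: no filter, no trend, robust eBayes and the replicate block. Averaging cannot move it either where a gene had 1 tested probe set. The count of called member probe sets was 2. It fell to 0 when dim probe sets were kept and also when eBayes used no trend. There 4 and 3 member probe sets had an unadjusted p under 0.05 by limma. Over the whole array 5230 of 45037 and 4063 of 27022 probe sets did. The same settings took the probe sets called over the whole array from 916 to 308 and to 258, and the called pathway genes from 5 to 2 and to 1. Median centring called 7 pathway genes, 6 of them higher and 1 lower. With 1 array left out, the counts ran from 0 to 4 for member probe sets, from 343 to 1995 for all probe sets and from 3 to 12 for pathway genes; the 0 occurred without either sham array, where 2 and 4 member probe sets had an unadjusted p under 0.05. In those fits the lone array of a group was assumed to vary like the other group. Array number limits the precision of every value, and signals near the bacterial controls have no reliable direction.

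Both groups carry replicate numbers 1 and 2, but nothing says that a number marks a shared animal or day, and the deviations of same-numbered arrays correlated at 0.102 across probe sets. With the replicate block, 3 member probe sets (Inhbb, Inhbe and Inhbc), 1943 probe sets in all and 12 pathway genes were called. Of these 12 genes, 10 were higher and 2 lower.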
